A study of Mus musculus with 12 samples.

Results

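The complement genes C2, C3, C4b, Cfb, Cfd, Serping1, Cd55, C5ar1 and Masp1 were followed in mouse kidneys with and without the AT1A angiotensin receptor. All probe sets annotated to these 9 genes were taken, and 6 of the genes had a probe set that carried no other symbol, giving 15 of 45037 probe sets. C4b was read by a probe set shared with its near copy C4a, and another probe set was shared by Cd55 and its paralogue Cd55b, so these 2 were kept apart as uncertain. C3 and Cfd were not analysed here.

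The 4 groups were KO mice, which lack the receptor gene Agtr1a, infused with angiotensin II (KO ANG II), wild-type mice given the same infusion (WT ANG II), KO mice at baseline and WT mice at baseline. Angiotensin II, the peptide through which the renin-angiotensin system raises blood pressure, was infused for 2 days at 1 ug/kg/min. All mice were males of the strain F1 (C57BL6 X 129/SvEv), 2.5 months old and on a diet labelled NS, whose meaning the labels do not give. Each group had 3 mice with 1 array of whole-kidney RNA per mouse, and the labels name no tissue limit of the deletion. In whole tissue, fewer cells of a type and less RNA per cell cannot be told apart.

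Complement is a cascade of plasma proteases and their substrates. Recognition molecules start it by the classical pathway (C1q with the proteases C1r and C1s) or the lectin pathway (the MASP proteases), and both cleave C4 and C2, while factor B drives the alternative pathway. The resulting convertases split C3 and then C5, and regulators such as the C1 inhibitor encoded by Serping1 and the membrane protein CD55 limit these steps. In the kidney, host cells rely on such membrane and plasma regulators, and loss of control over the alternative pathway is a known cause of glomerular disease.

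Each value below is an array's signal divided by the median signal of the probe set across the 12 arrays, so it compares groups for 1 gene and gives no level against another gene. Differences are in log2 units with the moderated standard error of limma over the 12 arrays, and calls were made where the Benjamini-Hochberg adjusted p, over all probe sets, was under 0.05. The targeted gene Agtr1a had ratios of 0.917 to 1.054 in KO ANG II, WT ANG II and KO baseline kidneys together, against 1.356 to 1.397 in WT baseline kidneys. Its KO baseline arrays were lower than WT baseline by 0.49 ± 0.08 (adjusted p = 0.00306), and where its probe set lies relative to the deleted part is not stated in the labels. Agtr1a was also lower in WT ANG II than in WT baseline kidneys, by 0.48 ± 0.08 (0.0012), and KO ANG II differed from WT ANG II by -0.00 ± 0.08 (0.98), so it did not separate the infused genotypes, which were taken as labelled. The spread of log2 ratios within an array (SD) was 0.165 to 0.196 in KO ANG II, 0.268 to 0.342 in WT ANG II, 0.222 to 0.262 in KO baseline and 0.164 to 0.180 in WT baseline kidneys. The log2 ratio of the 3' minus the 5' control probe sets of Actb and Gapdh, averaged as a sign of RNA quality, was 0.0362 to 0.0665 in WT ANG II arrays and between -0.0402 and 0.011 in the other groups. The 2 controls differed in WT ANG II arrays, with 0.1502, 0.0747 and 0.1326 for Actb and -0.0176, 0.0584 and -0.0601 for Gapdh. In the other groups Actb ran from -0.0517 to 0.0345 and Gapdh from -0.053 to 0.0316. The ratios cannot show whether kidney markers were present, since they hold no level. Of 6 measured markers of kidney epithelium outside the proximal tubule (Nphs1, Umod, Slc12a1 and others) 0 were called in the WT response and 1 was called higher in the KO response. These responses had 24.1% and 10.0% of all genes called.

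With infusion, Cd55 fell in WT kidneys and its difference in KO kidneys was not called. Serping1 was higher in KO than in WT kidneys at baseline and fell in KO kidneys with infusion, while Cfb rose there. In the WT response, 5 of 15 complement probe sets were called (33.3%), 1 higher and 4 lower, against 24.1% of all probe sets, 10.9% higher and 13.3% lower. In the KO response, 3 of 15 were called (20%), 1 higher and 2 lower, against 9.91% of all, 3.60% higher and 6.31% lower. The difference of the 2 responses was called for 4 (26.7%), all higher, against 9.78% of all, 5.70% higher and 4.08% lower. Between genotypes, KO baseline exceeded WT baseline for 2 (13.3%), with 6.52% of all probe sets called, 4.87% higher and 1.65% lower. KO ANG II differed from WT ANG II for 7 (46.7%), 4 higher and 3 lower, with 19.8% of all called, 11.7% higher and 8.17% lower. Probe sets of 1 gene are not independent, and the calls fell in 2, 3, 2, 2 and 3 genes in the order given. The median log2 difference of the 15 was near that of all probe sets in each comparison, for example -0.01 against 0.05 in the WT response. The comparisons share arrays, since each group enters more than 1 of them.

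**Figure D1:**
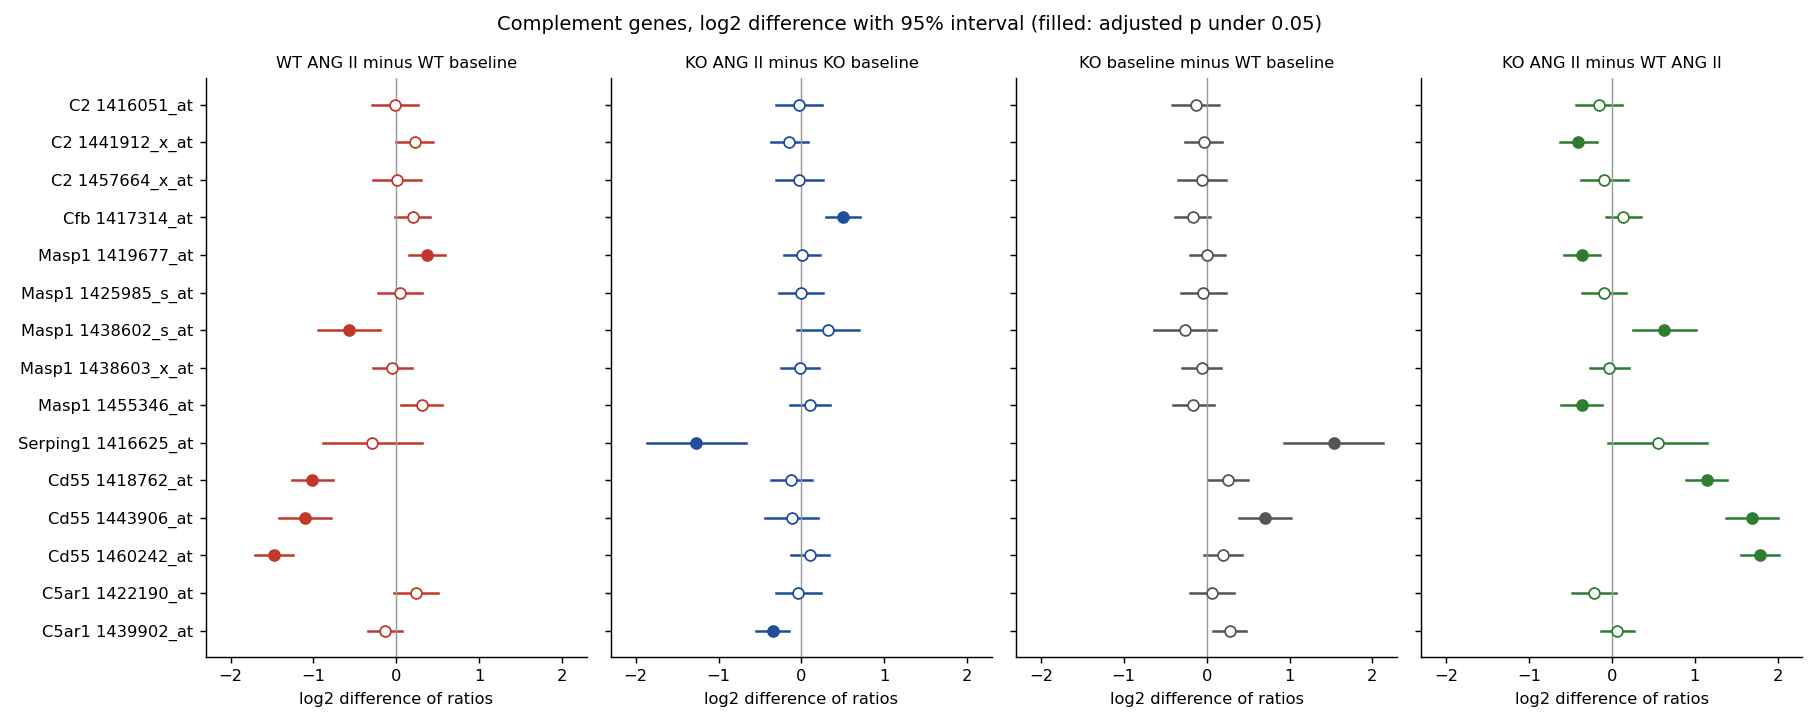
Log2 difference of each of the 15 complement probe sets (rows) in 4 comparisons (panels), with its 95% interval; a filled point has an adjusted p under 0.05. Cd55 sits below 0 in the WT response, between -1.48 and -1.01, and near 0 in the KO response, while Serping1 is at -1.27 in the KO response and at 1.53 between genotypes at baseline.

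Cd55 encodes decay-accelerating factor, a lipid-anchored membrane protein that breaks up the C3 convertases on host cells. The gene lies on chromosome 1, from 130429798 to 130465009 in GRCm38.p6. Because Cd55 was the gene whose own 3 probe sets were all called in the WT response, its promoter window is shown, from 250 bases before to 50 after a RefSeq start, chr1:130462695-130462994 on the minus strand of GRCm38.p6. The annotated gene reaches further upstream than this start. Capitals mark 2 matches to the GC box GGGCGG, both on the other strand and therefore printed as its reverse complement.
Cd55 promoter: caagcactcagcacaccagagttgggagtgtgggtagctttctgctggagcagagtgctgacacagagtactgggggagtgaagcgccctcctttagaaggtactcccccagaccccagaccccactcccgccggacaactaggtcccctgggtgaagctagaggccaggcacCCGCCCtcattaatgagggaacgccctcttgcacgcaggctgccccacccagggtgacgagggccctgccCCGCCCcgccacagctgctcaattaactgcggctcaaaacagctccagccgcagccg
The first bases of these matches lay 77 and 7 bases before the start. GGGCGG, searched on both strands, was in 35.7% of 32851 promoter windows of the same length. The window held no match to TGANTCA (AP-1, in 7.81% of windows) or TGACGTCA (cAMP response element, in 1.79%). A match is a run of letters and not a bound site.

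Probe set 1460242_at of Cd55 had ratios of 1.203, 1.142 and 1.097 in KO ANG II kidneys and 0.320, 0.324 and 0.357 in WT ANG II kidneys, with 0.934, 1.119 and 1.159 in KO baseline and 1.066, 0.890 and 0.839 in WT baseline kidneys. The 3 WT ANG II arrays stood together far below all 9 others. Probe set 1418762_at gave 0.966, 1.100 and 1.082 in KO ANG II, 0.475, 0.532 and 0.419 in WT ANG II, 1.086, 1.324 and 1.034 in KO baseline, and 1.048, 0.894 and 0.929 in WT baseline kidneys. The same 3 arrays were the low ones. Probe set 1443906_at gave 1.255, 1.099 and 1.299 in KO ANG II, 0.455, 0.414 and 0.284 in WT ANG II, 1.280, 1.326 and 1.354 in KO baseline, and 0.901, 0.712 and 0.831 in WT baseline kidneys. Here WT baseline kidneys were also below both KO groups, without overlap. The 3 probe sets followed each other over the 12 arrays with Pearson correlations of 0.928 to 0.954.

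**Figure D2:**
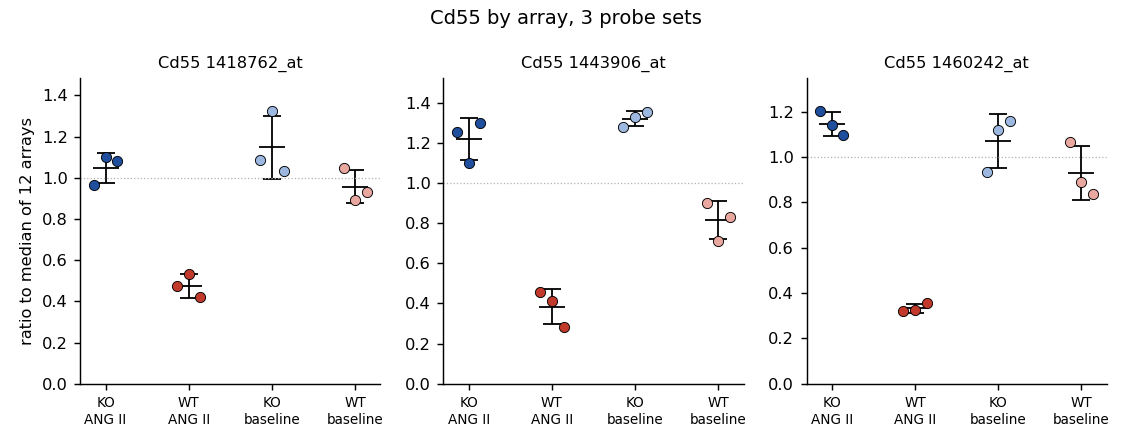
Ratio to the probe set's median over 12 arrays (y axis, from 0) for the 3 Cd55 probe sets in the 4 groups; points are arrays, bars the mean ± SD of 3. WT ANG II arrays lie between 0.284 and 0.532 and every other array at 0.712 or above.

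Cd55 thus fell in the WT response by 1.01 ± 0.11 (1418762_at, adjusted p = 8.78e-05), 1.11 ± 0.15 (1443906_at, 0.000256) and 1.48 ± 0.11 (1460242_at, 4.73e-06) in log2 units, which is 2.02-, 2.15- and 2.78-fold lower in WT ANG II than in WT baseline kidneys. Among the 5988 probe sets that fell in this response, 271, 181 and 57 fell as far as these or further. In the KO response the 3 differences were -0.12, -0.12 and 0.11, with adjusted p of 0.51, 0.625 and 0.55. For 1460242_at the 95% interval of that difference ran from -0.12 to 0.33, well short of the WT fall. The KO response was higher than the WT response by 0.89 ± 0.16 (adjusted p = 0.00435), 0.99 ± 0.21 (0.00987) and 1.58 ± 0.15 (4.7e-05). Under infusion, Cd55 was 2.21-, 3.22- and 3.44-fold higher in KO ANG II than in WT ANG II kidneys (adjusted p = 2.55e-05, 7.69e-06 and 4.51e-07).

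At baseline 1443906_at was higher in KO than in WT kidneys by 0.70 ± 0.15 (adjusted p = 0.0125). That call was lost without WT baseline replicate 2 (0.61, adjusted p = 0.0578). The other 2 probe sets differed by 0.26 and 0.20 at baseline (adjusted p = 0.204 and 0.284). With the 3 probe sets averaged, Cd55 was higher in KO baseline than in WT baseline kidneys by 0.39 ± 0.09 (adjusted p = 0.0204) and fell by 1.20 ± 0.09 in the WT response (7.92e-06). The fall in the WT response kept its call in all 19 alternatives tried. With the arrays quantile normalized again it shrank to 0.60, 0.56 and 0.90 below WT baseline, and the difference of the responses was then called for 1460242_at (1.04, adjusted p = 0.0118) but not for 1418762_at (0.50, 0.0563) or 1443906_at (0.56, 0.0753).

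Other membrane regulators were read for comparison. The paralogue Cd55b differed by -0.02 ± 0.10 in the WT response (adjusted p = 0.894), and the probe set shared by Cd55b and Cd55 by 0.09 ± 0.09 (0.467). Cd59a, which blocks assembly of the membrane attack complex, differed by -0.02 (0.896). Cd46, a cofactor for cleavage of C3b, differed by 0.26 (0.137). Cr1l, the rodent regulator Crry, differed by -0.03 (0.775), though 1 of its 3 probe sets was called lower. None of these single values was called, and the difference between them and Cd55 was not tested. Since ratios hold no intensity, whether these probe sets had signal in the kidney is unknown, so an absent call need not mean an unchanged gene.

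Markers of cell types were read in the same comparison, in which 24.1% of all genes were called, 9.61% higher and 14.5% lower. In the WT response 4 of 11 proximal tubule markers (Slc34a1, Slc5a2, Lrp2, Cubn and others) were called lower and 2 higher, with summed ratios of 10.0 to 11.0 in WT ANG II and 11.0 to 11.9 in WT baseline kidneys. Of 10 endothelial markers (Pecam1, Cdh5, Kdr, Tek and others) 4 were called lower and 1 higher, with sums of 8.49 to 9.03 against 9.14 to 10.6. Single proximal tubule markers ranged from -2.47 to 0.65 in log2 units, wider than the Cd55 probe sets, and endothelial ones from -0.60 to 0.55. The part of these cells and of the higher Actb 3' minus 5' values of WT ANG II arrays in the Cd55 result was not tested.

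The genes whose log2 ratios followed Cd55 (1418762_at) most closely over the 12 arrays, among 18193 genes, were Ran, which encodes a nuclear transport GTPase (r = 0.981), Slc4a1ap (0.980) and Arf4, a GTPase of membrane traffic (0.980). These correlations describe arrays that fall into the same 4 groups.

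Serping1 encodes the C1 inhibitor, a plasma serpin that blocks C1r, C1s and the MASP proteases and also kallikrein of the bradykinin pathway. It lies on chromosome 2, from 84765360 to 84775444. Its single probe set had ratios of 1.470, 0.929 and 0.769 in KO ANG II kidneys, 0.526, 0.989 and 0.638 in WT ANG II kidneys, 2.961, 2.645 and 1.889 in KO baseline kidneys, and 1.011, 1.012 and 0.597 in WT baseline kidneys. The 3 KO baseline arrays were the highest of the 12, and the other groups overlapped each other.

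Serping1 was 2.89-fold higher in KO baseline than in WT baseline kidneys, a log2 difference of 1.53 ± 0.28 (adjusted p = 0.00602), and this call was kept in all 19 alternatives. In KO mice it fell by 1.27 ± 0.28 with infusion (adjusted p = 0.0119), 2.42-fold lower in KO ANG II than in KO baseline kidneys. Without KO ANG II replicate 3 the fall was -1.07 and no longer called (adjusted p = 0.0581). In WT mice the difference was -0.29 ± 0.28 (0.455). Leaving out single arrays moved that value between -0.55 (without WT ANG II replicate 2, and likewise WT baseline replicate 3) and -0.10 (without WT ANG II replicate 1), with -0.17 without WT baseline replicate 1 or 2, and it was called in no case. The 2 responses differed by -0.98 ± 0.39 (adjusted p = 0.139), so they were not shown to be unequal. KO ANG II and WT ANG II kidneys differed by 0.55 ± 0.28 (0.17), a value that was 0.29 on leaving out KO ANG II replicate 1, 0.36 on leaving out WT ANG II replicate 1, and at most 0.81, again with no call.

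The genes of the C1 complex, which C1 inhibitor controls, were also high at KO baseline. The subunit gene C1qb had ratios of 1.435, 0.968 and 1.057 in KO ANG II, 0.550, 0.718 and 0.631 in WT ANG II, 3.528, 3.187 and 2.145 in KO baseline, and 1.009, 0.991 and 0.761 in WT baseline kidneys. C1ra, a C1r protease gene, ran from 0.945 to 1.043 in KO ANG II, 0.466 to 0.549 in WT ANG II, 1.526 to 2.066 in KO baseline and 0.905 to 1.127 in WT baseline kidneys. For C1ra all 4 groups but KO ANG II and WT baseline were apart from one another. C1ra and C1s1 have near-identical copies in the mouse (C1rb, C1s2), and their probe sets may read both. KO baseline exceeded WT baseline by 1.66 ± 0.19 for C1qb (adjusted p = 0.000332), 1.44 ± 0.19 for C1qa (0.00092), 1.39 ± 0.20 for C1qc (0.00137) and 0.84 ± 0.12 for C1ra (0.00144). C1ra fell in both responses, by 1.00 ± 0.12 in WT (adjusted p = 0.000132) and by 0.91 ± 0.12 in KO mice (0.000558), and the responses differed by 0.09 ± 0.17 (0.798). For C1s1 they differed by -0.03 (0.972). The WT response was -0.41 for C1qa (0.125), -0.54 for C1qb (0.0524, called in 8 of 19 alternatives) and -0.65 for C1qc (0.0296). KO response minus WT response was -0.81 (0.0742), -0.81 (0.0725) and -0.52 (0.284) for these chains. It was called in 4, 5 and 0 of 18 alternatives.

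**Figure D3:**
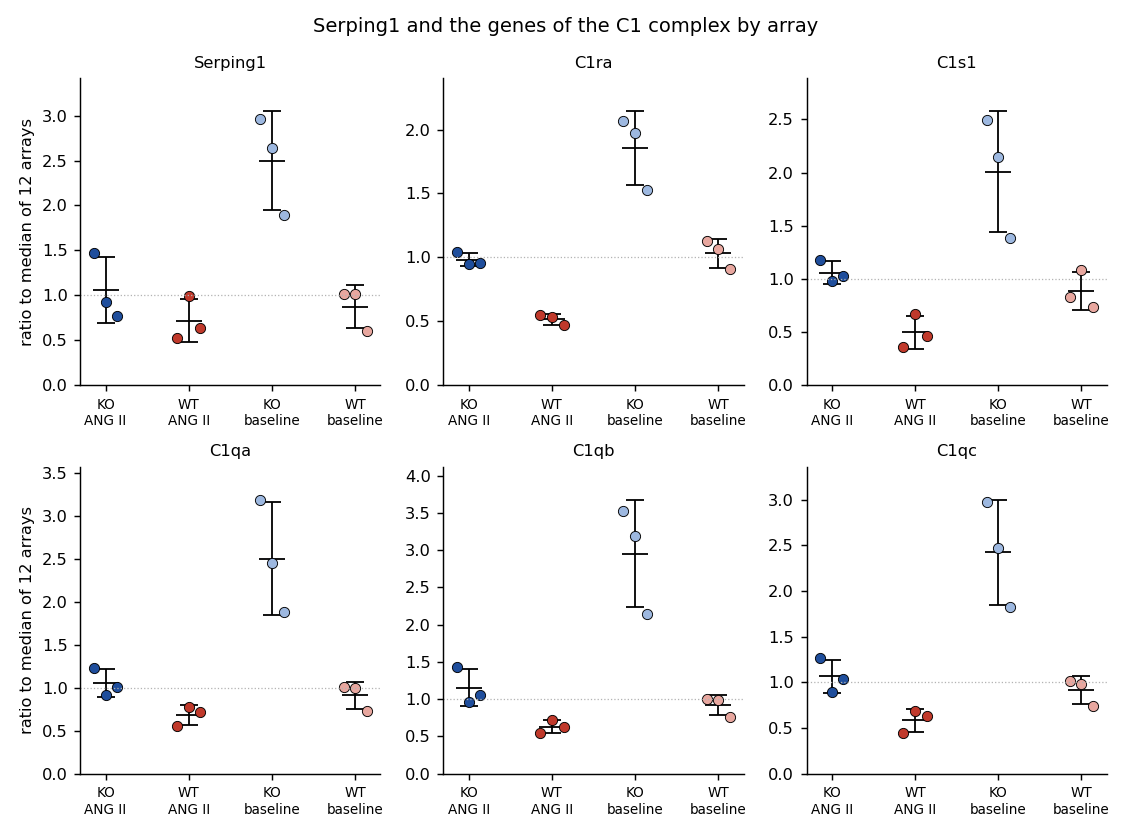
Ratio to the probe set's median over 12 arrays (y axes, from 0, own scale per panel) for Serping1 and 5 genes of the C1 complex in the 4 groups; points are arrays, bars the mean ± SD of 3. In all 6 panels each of the 3 KO baseline arrays lies above every WT baseline array, and KO baseline replicate 3 is the lowest of its group.

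Macrophage markers (Adgre1, Cd68, Csf1r, Lyz2 and others) moved with Serping1. Of 14 measured, 10 were called higher in KO baseline than in WT baseline kidneys, 9 were called lower in the KO response and 4 lower in the WT response. Their summed ratio was 12.8 to 16.9 in KO ANG II, 9.58 to 11.6 in WT ANG II, 22.8 to 34.6 in KO baseline and 11.6 to 14.2 in WT baseline kidneys. Fibroblast and stromal markers (Col1a1, Col1a2, Col3a1, Dcn and others) behaved alike in part, with 5 of 10 called higher in KO at baseline, 4 lower in the KO response, and sums of 13.0 to 23.1 in KO baseline against 8.22 to 11.0 in WT baseline kidneys. Of 12 measured interferon-stimulated genes (Irf1, Irf7, Ifit1, Ifit3 and others) 7 were called higher and 0 lower in KO baseline than in WT baseline kidneys, with sums of 15.3 to 16.4 against 10.4 to 11.96. In the KO response 5 of them were called lower and 0 higher. Of all genes, 4.52% were called higher and 2.04% lower in KO at baseline. The KO response had 4.28% higher and 5.73% lower, and the WT response 9.61% and 14.5%. Ratios give no level, so which of these markers were near 0 cannot be read. Their part in the Serping1 result was not tested. Over the 12 arrays and 18193 genes, the closest patterns to Serping1 were those of Lyz2, a lysozyme gene of myeloid cells (r = 0.983), Smoc2, a matrix protein gene (0.982), and Dpysl2 (0.980).

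Cfb encodes factor B, the protease subunit of the alternative pathway C3 convertase, which is also made by tubular cells of the kidney. It lies on chromosome 17, from 34856374 to 34862514, with 87 bases between it and C2 in the class III region of the major histocompatibility complex. Its ratios were 1.093, 1.179 and 1.237 in KO ANG II, 1.199, 0.973 and 1.027 in WT ANG II, 0.844, 0.821 and 0.812 in KO baseline, and 0.917, 0.848 and 1.027 in WT baseline kidneys. All KO ANG II arrays were above all KO baseline arrays, whereas the WT groups overlapped.

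Cfb was 1.41-fold higher in KO ANG II than in KO baseline kidneys, by 0.50 ± 0.10 on the log2 scale (adjusted p = 0.00642). The call was kept in all 19 alternatives, with adjusted p up to 0.0353. In WT mice the difference was 0.20 ± 0.10 (adjusted p = 0.156), and the responses differed by 0.31 ± 0.14 (0.192), so a difference between genotypes was not shown. The KO baseline arrays lay below all others. KO baseline minus WT baseline was -0.17 ± 0.10 (0.33) and KO ANG II minus WT ANG II 0.14 ± 0.10 (0.329), neither called. In the KO response 4.28% of all genes were called higher and 5.73% lower. There 6 of 15 acute-phase and NF-kappa B target genes (Saa3, Lcn2, Cxcl1, Cxcl2 and others) were called lower and 0 higher. Neutrophil markers (S100a8, S100a9, Ly6g, Retnlg and others) were called higher for 2 of 9 and lower for 0, with sums of 9.91 to 16.0 in KO ANG II against 6.97 to 7.81 in KO baseline kidneys. Liver markers (Alb, Apoa1, Apoa2, Ttr and others) were called for 0 of 8, and their summed ratio was 8.55 to 8.88 in KO ANG II against 6.68 to 7.39 in KO baseline kidneys. The part of these cells in the Cfb result was not tested. The closest patterns over the 12 arrays were those of Pramel6 (r = 0.954), Gm35961 (0.943) and Sh3bp5 (0.934).

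C2 encodes the protease subunit of the classical and lectin pathway C3 convertase and lies next to Cfb, from 34862602 to 34882100. It had 3 probe sets, whose correlations with each other over the 12 arrays ran from 0.606 to 0.864. Probe set 1416051_at gave 0.799, 0.951 and 1.073 in KO ANG II, 1.243, 0.854 and 1.049 in WT ANG II, 0.984, 0.976 and 0.905 in KO baseline, and 1.016, 1.022 and 1.105 in WT baseline kidneys. No group stood apart from all others. Its differences ranged from -0.15 between infused genotypes to -0.01 in the WT response, and with 1457664_x_at it was called in 0 of 5 comparisons (unadjusted p under 0.05 in 0).

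Probe set 1441912_x_at of C2 gave 0.790, 0.897 and 1.004 in KO ANG II and 1.273, 1.063 and 1.221 in WT ANG II kidneys, which did not overlap. KO ANG II was lower than WT ANG II by 0.41 ± 0.10 (adjusted p = 0.0152). This call was lost with only those groups in the fit (adjusted p = 0.0544) and without KO ANG II replicate 1 (-0.32, adjusted p = 0.0726). The other 2 probe sets gave -0.15 and -0.09 (0.427 and 0.653), so all 3 were lower but 1 of 3 was called. Although Cfb and C2 are neighbours, C2 had no call in the KO response, where its differences were -0.03, -0.15 and -0.03.

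Masp1 encodes proteases of the lectin pathway, MASP-1 and MASP-3, and a protease-free product by alternative splicing. It lies on chromosome 16, from 23451785 to 23521240. Its 5 probe sets did not move together, with correlations over the 12 arrays between -0.569 and 0.683, and which product each one reads is not stated in the annotation used. Probe set 1419677_at gave 0.859, 1.055 and 1.016 in KO ANG II, 1.301, 1.148 and 1.300 in WT ANG II, 1.058, 0.877 and 0.983 in KO baseline, and 0.927, 0.984 and 0.983 in WT baseline kidneys. Its WT ANG II arrays were the 3 highest. Probe set 1438602_s_at gave 0.997, 1.300 and 1.161 in KO ANG II, 0.544, 1.007 and 0.734 in WT ANG II, 0.882, 0.873 and 1.003 in KO baseline, and 0.964, 1.181 and 1.161 in WT baseline kidneys. Here 2 of the WT ANG II arrays were the lowest, and the third overlapped WT baseline.

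In the WT response 1419677_at rose by 0.37 ± 0.10 (adjusted p = 0.0171) and 1438602_s_at fell by 0.57 ± 0.18 (0.0308), so the gene was called in both directions. The rise was not called without WT ANG II replicate 3 (0.34, adjusted p = 0.0564) or WT baseline replicate 1 (0.34, 0.0671), nor after quantile normalization (0.30, 0.0792). The fall was not called without WT ANG II replicate 1 (-0.35, adjusted p = 0.0962), WT ANG II replicate 3 (-0.57, 0.0762), WT baseline replicate 2 (-0.52, 0.0912) or WT baseline replicate 3 (-0.53, 0.0802), nor with only the WT groups (0.0563), quantile normalization (0.0716) or array weights (0.0634). Probe set 1455346_at had a difference of 0.30 (0.0679). In the KO response none of the 5 was called. The responses differed for 1438602_s_at by 0.89 ± 0.25 (adjusted p = 0.0367), a call lost without any 1 of KO ANG II replicates 2 and 3, WT ANG II replicate 3, KO baseline replicates 1 and 2 and WT baseline replicates 2 and 3 (0.80 to 0.89, adjusted p = 0.0661 to 0.0819).

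Under infusion, KO ANG II was higher than WT ANG II for Masp1 1438602_s_at by 0.63 (adjusted p = 0.0229) and lower for 1419677_at and 1455346_at, both by -0.36 (0.0234 and 0.0402). None of these 3 was called with only those groups in the fit (adjusted p = 0.0662, 0.0644 and 0.0561) or with array weights (0.0525, 0.0559 and 0.0719). After quantile normalization 1419677_at (-0.29, 0.111) and 1455346_at (-0.29, 0.203) were not called either, while 1438602_s_at kept its call. All 3 calls were also lost on leaving out single arrays. For 1438602_s_at these were KO ANG II replicates 2 and 3 and WT ANG II replicates 1 and 3 (0.41 to 0.63). For 1419677_at they were KO ANG II replicate 1 and WT ANG II replicates 1 and 3 (-0.33 to -0.27), and for 1455346_at KO ANG II replicates 1 and 3, all 3 WT ANG II replicates and KO baseline replicate 3 (-0.40 to -0.27). The mean over the 5 probe sets was not called in this comparison or in the WT response.

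**Figure D4:**
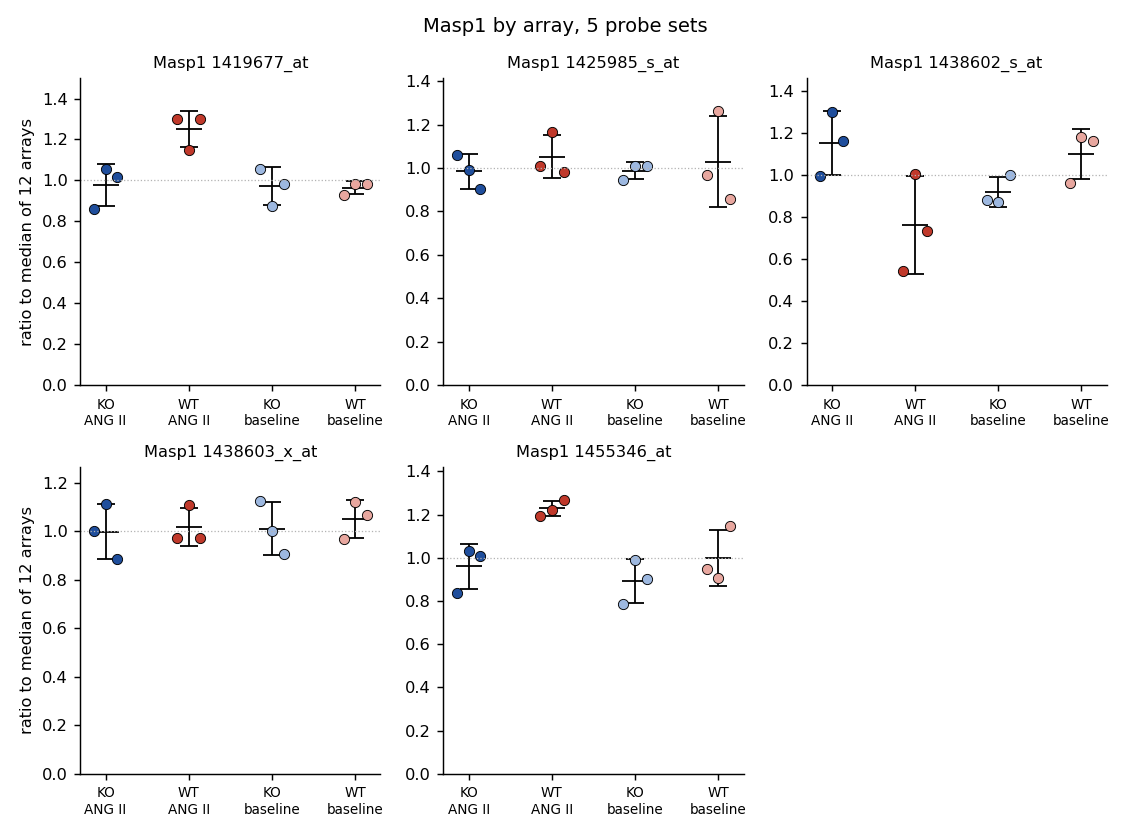
Ratio to the probe set's median over 12 arrays (y axes, from 0) for the 5 Masp1 probe sets in the 4 groups; points are arrays, bars the mean ± SD of 3. WT ANG II arrays are the highest for 1419677_at (1.148 to 1.301) and 1455346_at, hold the 2 lowest values for 1438602_s_at (0.544 and 0.734), and overlap the other groups for the remaining 2.

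The probe set shared by C4a and C4b, genes of the fourth component, had ratios of 0.893, 1.019 and 1.000 in KO ANG II, 1.136, 1.021 and 0.972 in WT ANG II, 1.222, 1.027 and 1.000 in KO baseline, and 0.791, 0.767 and 0.907 in WT baseline kidneys. The WT baseline arrays were low and met the KO ANG II range. It rose in the WT response by 0.34 ± 0.10 (adjusted p = 0.0283) and was higher in KO baseline than in WT baseline kidneys by 0.40 ± 0.10 (0.037). The KO response was lower than the WT response by 0.50 ± 0.15 (0.0462; 0.064 with the replicate number as a block). Leaving out any array other than WT ANG II replicate 3, KO baseline replicate 3 and WT baseline replicate 3 lost the last of these (-0.54 to -0.41, adjusted p = 0.0537 to 0.112). The rise was lost without WT ANG II replicates 1 or 2 or WT baseline replicates 1 or 2 (0.28 to 0.36, adjusted p = 0.0548 to 0.0962). The baseline difference was lost without KO baseline replicates 1 or 2 or WT baseline replicates 1 or 2 (0.31 to 0.43, adjusted p = 0.0765 to 0.137) and was 0.0514 with the block. Signal of C4b could not be told from that of C4a.

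C5ar1 encodes the receptor for C5a, the chemoattractant fragment of C5, on myeloid cells. It lies on chromosome 7, from 16246743 to 16259540, and its 2 probe sets had a correlation of -0.195 over the 12 arrays. Probe set 1439902_at gave 1.008, 0.969 and 0.996 in KO ANG II, 0.986, 0.996 and 0.863 in WT ANG II, 1.302, 1.294 and 1.194 in KO baseline, and 0.953, 1.178 and 1.004 in WT baseline kidneys. The KO baseline arrays were the 3 highest. It fell in the KO response by 0.35 ± 0.09 (adjusted p = 0.0316), a call lost without any 1 KO ANG II replicate or without KO baseline replicate 1 or 2 (-0.36 to -0.33, adjusted p = 0.0533 to 0.103) and after quantile normalization (-0.32, 0.0629). KO baseline and WT baseline differed by 0.28 ± 0.09 (0.0933). Probe set 1422190_at gave 1.053, 0.963 and 0.790 in KO ANG II against 1.086, 0.819 and 0.972 in KO baseline kidneys, a difference of -0.04 ± 0.12 (0.872). The macrophage marker sums given with Serping1 moved in the same direction as 1439902_at, and their part was not tested.

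Of 47 other complement genes 39 were measured, here with 1 probe set per gene. In the WT response 0 were called higher and 6 lower (24.1% of all genes called, 9.61% higher and 14.5% lower), namely C1ra, C8g, Cfi, C1s1, C1qc and Colec12. The last 3 were not called after quantile normalization (adjusted p = 0.0841, 0.156 and 0.145) or without single arrays. For C1s1 these were WT ANG II replicates 1 and 3 and WT baseline replicate 2 (-0.83 to -0.65), for C1qc WT ANG II replicate 1 and WT baseline replicates 1 and 2 (-0.59 to -0.46), and for Colec12 WT ANG II replicates 1 and 3 and WT baseline replicates 1 and 2 (-0.80 to -0.55). C8g, a chain of the membrane attack complex component C8, had ratios of 1.031, 1.191 and 1.182 in KO ANG II, 0.668, 0.544 and 0.604 in WT ANG II, 0.928, 0.971 and 0.907 in KO baseline, and 1.029, 1.063 and 1.067 in WT baseline kidneys. Its WT ANG II arrays were the 3 lowest, as they were for Cd55. It fell by 0.80 ± 0.09 in the WT response (adjusted p = 8.65e-05) and differed by 0.28 ± 0.09 in the KO response (0.0692). The latter was called higher in 3 of 19 alternatives. Cfi, the protease that cleaves C3b with its cofactors, fell by 0.56 ± 0.13 (0.00795) in WT mice.

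In the KO response 2 of the 39 were called higher and 9 lower (10.0% of all genes called, 4.28% higher and 5.73% lower). The lower ones with the smallest adjusted p were C1qb (-1.35), C1ra (-0.91), C1qa (-1.23), C1qc (-1.17), Itgb2 (-0.77), the beta chain of complement receptors 3 and 4, and Cd93 (-0.62). Itgax, the alpha chain of complement receptor 4, was also called lower (-0.55, adjusted p = 0.0249), but not with only the KO groups in the fit (0.0557) or without KO ANG II replicate 1 or 2 or KO baseline replicate 1 or 2 (-0.57 to -0.40, adjusted p = 0.06 to 0.0923). The difference of the responses was called higher for 2 and lower for 2 (10.2% of all genes, 6.95% higher and 3.29% lower). C8g differed by 1.08 ± 0.13 (adjusted p = 0.000226) and C8a, the alpha chain of C8, by 0.80 ± 0.20 (0.0254). Cd93 differed by -0.81 ± 0.18 (0.0141) and Itgax by -0.87 ± 0.20 (0.015). Of the 5 probe sets of Cd93, 3 were called lower in this difference. For C8a the call was lost without any 1 of KO ANG II replicates 1 and 3, KO baseline replicate 1, WT ANG II replicate 2 and WT baseline replicates 1 and 2 (0.70 to 0.81, adjusted p = 0.0528 to 0.0649). After quantile normalization neither C8a (0.68, 0.0546) nor Cd93 (-0.76, 0.0508) was called.

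At baseline 8 of the 39 were called higher in KO than in WT kidneys and 0 lower (6.56% of all genes called, 4.52% higher and 2.04% lower). C3ar1, Cfp and Colec11 were not among the 8. Counting every probe set, however, 2 of 3, 1 of 2 and 1 of 2 of theirs were called higher. Besides the C1q chains and C1ra the 8 included Itgb2 (1.08 ± 0.14, adjusted p = 0.00091) and Itgax (0.87 ± 0.14, 0.00296). These integrin chains and C1q chains are made by macrophages, whose markers are given with Serping1. Between infused genotypes 9 were called higher and 1 lower in KO ANG II (21.6% of all genes called, 13.7% higher and 7.87% lower), led by C8g (0.91 ± 0.09, adjusted p = 2.55e-05), C1ra (0.93 ± 0.12, 0.000184) and C8a (1.11 ± 0.14, 0.000185). C8a had ratios of 1.560, 1.273 and 1.380 in KO ANG II and 0.587, 0.587 and 0.784 in WT ANG II kidneys, without overlap.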

How the data were processed

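Total RNA of snap-frozen kidneys was hybridised to Affymetrix mouse expression arrays, 1 per mouse, in 4 groups of 3, and per the submitters' processing notes RMA was used. The values deposited by the authors were a linear ratio of each array to its probe set's median over 12 arrays. The division is not stated and was read from the values: 45099 of 45101 medians lay within 0.002 of 1. Intensity and signal over background are therefore unknown, and 3 arrays per group limit the precision.

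Log2 ratios of 45037 probe sets, without 64 control probe sets, were fitted with limma 3.58.1 in R 4.3.3, with a mean per group (8 residual and 5.83 prior degrees of freedom) and 5 two-sided contrasts, each adjusted by Benjamini-Hochberg. The labels state separate mice. They do not say whether replicate numbers pair samples, and the main fit did not pair them. Deviations from the group mean of same-numbered samples of different groups correlated between -0.157 and 0.219 (median 0.013), with 7 of 18 pairs over 0.1. Differently numbered samples gave -0.294 to 0.236 (median -0.011), with 7 of 36 over 0.1. A shared litter or batch was therefore not excluded.

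Array annotation was updated through gene IDs to RefSeq symbols of GRCm38.p6, the source of coordinates and promoter sequence. It gave 34945 probe sets 1 symbol, 932 several and 9160 none. Promoter windows of Serping1, C2, Cfb and Masp1 were not analysed here. Per-gene counts took the plainest probe set name (_at before _a_at, _s_at and _x_at, then the lowest number). All member probe sets were named, up to 6 called genes per comparison of the other complement genes, and up to 3 genes closest in pattern. Members and lists were chosen with earlier results of these data known. In 2 of the gene lists, 1 gene each is not reported here. Procedures were tested on simulated data. A filter on dim probe sets was not possible on ratios, and one on low spread stood in.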

Additional observations from a re-analysis of the deposited data

Results flagged for a closer look

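The following results were picked out because the response to ANG II differed between KO and WT mice by a test of the difference itself (KO response minus WT response, limma, adjusted p under 0.05). They were all 3 Cd55 probe sets, at 0.89 (1418762_at), 0.99 (1443906_at) and 1.58 (1460242_at), and Masp1 probe set 1438602_s_at, at 0.89. The probe set shared by C4a and C4b was at -0.50. Of the other complement genes, C8g was at 1.08, C8a at 0.80, Itgax at -0.87 and Cd93 at -0.81. Across 18 alternatives, the call was lost in 11 for the C4a and C4b probe set and in 7 each for Masp1 1438602_s_at and C8a. It was lost in 1 each for Cd55 1418762_at, Cd55 1443906_at and Cd93, and in 0 for Cd55 1460242_at, C8g and Itgax. In Cd55 and C8g the WT response was called and the KO response was not. In 3 of 19 alternatives, however, the KO response of C8g was called higher. For Itgax and Cd93, each read by 1 probe set, the reverse held. The Itgax call in the KO response was lost in 5 alternatives. Of all 5 Cd93 probe sets, 2 were called lower in the KO response and 1 higher in the WT response.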

How the results depend on the processing

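The alternatives were a variance trend, only the groups compared, a repeated quantile normalization, centring of array medians, a block for the replicate number, array weights, the lower part of the spread left out, averaging over the probe sets of each gene, and each array left out in turn. Apart from the averaging, no called probe set value changed sign. Averaging its 5 probe sets gave Masp1 0.02 in the WT response and -0.04 between infused genotypes, neither called, where 1438602_s_at alone was called at -0.57 and 0.63. With only the infused groups in the fit, KO ANG II against WT ANG II gave 3 complement probe sets called and 4991 of all, where the fit to all groups gave 7 and 8934. Quantile normalization gave 3 and 5704 in the WT response (main values 5 and 10876), 2 and 2867 in the difference of responses (4 and 4404), and 4063 of all between infused genotypes. Array weights gave 6962 of all in the KO response (4465), 4849 between genotypes at baseline (2936), and 4 complement probe sets between infused genotypes. Averaging over the probe sets of each gene gave 1 complement gene called in the WT response (2 with 1 probe set), 2 at baseline between genotypes (1) and 1 under infusion (2). With the replicate number as a block, the complement counts were 6, 3, 4, 2 and 7 for the WT response, KO response, their difference, and the genotypes at baseline and under infusion. The block added the call of Masp1 1455346_at in the WT response (0.30, adjusted p = 0.0446), lost those of the C4a and C4b probe set named above, and changed no other call of the 9 genes. Leaving out 1 array gave 3 to 5 complement probe sets and 5773 to 12277 of all in the WT response, 1 to 3 and 2069 to 5183 in the KO response, 3 to 4 and 2484 to 5104 in their difference, 1 to 2 and 1107 to 3329 at baseline, and 4 to 7 and 5021 to 10743 under infusion. Fewer arrays or groups leave fewer degrees of freedom, and for the other settings the cause was not tested. Since ratios hold no intensity, a probe set near background could not be told from one with signal.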

Other observations

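Of all genes, 24.1% were called in the WT response, 9.61% higher and 14.5% lower. Between genotypes at baseline 6.56% were called, 4.52% higher and 2.04% lower. Further marker lists gave these counts. In the WT response, neutrophil markers were called higher for 4 of 9 and lower for 0, liver markers higher for 3 of 8 and lower for 1, adipocyte markers higher for 2 of 11 and lower for 1, and B cell markers for 0 of 6. Acute-phase and NF-kappa B target genes were called higher for 2 of 15 in the WT response, and for 7 of 15 in KO baseline against WT baseline kidneys, with summed ratios of 20.0 to 26.0 against 13.1 to 14.3. The complement regulators outside the 9 genes, 13 measured with 1 probe set per gene, had 1 call in the WT response (Cfi, lower). They also had 1 in KO ANG II against WT ANG II (Clu, higher). In these comparisons 24.1% and 21.6% of all genes were called. Counting every probe set, 1 of 4 for Clu and 1 of 3 for Cr1l were called lower in the WT response. Between infused genotypes 1 of 4 for Clu was called higher and 1 of 2 for Cfhr2 lower. The Clu value of 0.31 was not called in 10 of 18 alternatives, namely with only the infused groups, after quantile normalization, and without KO ANG II replicates 1 or 3, WT ANG II replicates 2 or 3, KO baseline replicate 2 or any WT baseline replicate (adjusted p = 0.0542 to 0.174).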
